A study of Mus musculus with 67 samples.

Results

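Per3, Nr1d2 and Ciart, 3 genes of the circadian clock, were followed in the cerebral cortex of mice that differed in age, diet and sex. They were chosen by name, and all probes that the array annotation pairs with 1 symbol, that symbol being a member, were taken. This gave 1 probe for each gene, 3 of the 8448 probes on the filter, and 3 of the 4209 genes that had a probe of 1 symbol. The 67 mice were C57BL/6 of both sexes, each measured on its own array of radiolabelled cortical cDNA. Mice fed ad libitum (AL) were taken at 17-21 days (n = 5), 33-44 days (n = 5), 6 months (n = 10), 16 months (n = 10) and 24 months (n = 10). Mice on caloric restriction (CR), which had regular feed early in life and then a smaller ration of fortified feed, were taken at 6 months (n = 9), 16 months (n = 10) and 24 months (n = 8). By label the 6-month mice were 169 to 194 days old, the 16-month mice 472 to 499 days and the 24-month mice 673 to 743 days. The 3 CR males of the oldest group were all 673 days old. The study asked how age and energy intake alter cortical transcripts. Its methods describe mice of 6, 16 and 24 months and state that the time of day of killing was held constant. They do not mention the 17-21 and 33-44 day mice, so for these the time of day is not known. A change in the mean level of a clock gene and a shift in its daily phase cannot be told apart here.

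The molecular clock is a feedback loop of transcription. CLOCK and its partner BMAL1, the product of Arntl, bind E-boxes and switch on the genes of their own repressors. Per3 encodes a PERIOD protein, 1 of the family that enters the nucleus with the cryptochromes and holds the activators down. Ciart encodes CHRONO, a repressor that binds BMAL1. Nr1d2 encodes REV-ERB beta, a nuclear receptor that represses Arntl through ROR response elements. D-boxes, the sites of DBP and its relatives, form a further arm of the loop. The cortex runs such a clock in neurons and glia under the lead of the suprachiasmatic nucleus, and the timing of meals can set clocks in other tissues.

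The promoters of the 3 genes are shown because they hold matches to different motifs of the clock. Motifs were counted in the 250 bases before the start that the RefSeq promoter table uses for a gene on GRCm38.p6. For Per3 and Ciart that start lies 42 and 29 bases inside the gene as placed below, so the lines give only the 208 and 221 bases outside it, and for Nr1d2 all 250, 5′ to 3′ on the strand of the gene, in lower case. Capitals mark 3 motifs searched on both strands: the E-box CACGTG, the D-box TTATGTAA or TTACGTAA, and AGGTCA, the half-site shared by REV-ERB and ROR receptors. No motif overlapped another in these windows.
Per3 (chr4:151044708-151044915, minus strand): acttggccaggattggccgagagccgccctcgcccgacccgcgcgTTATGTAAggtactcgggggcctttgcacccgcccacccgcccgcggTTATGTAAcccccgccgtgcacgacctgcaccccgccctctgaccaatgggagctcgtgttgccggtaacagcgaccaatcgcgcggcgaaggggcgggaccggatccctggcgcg
Nr1d2 (chr14:18239107-18239356, minus strand): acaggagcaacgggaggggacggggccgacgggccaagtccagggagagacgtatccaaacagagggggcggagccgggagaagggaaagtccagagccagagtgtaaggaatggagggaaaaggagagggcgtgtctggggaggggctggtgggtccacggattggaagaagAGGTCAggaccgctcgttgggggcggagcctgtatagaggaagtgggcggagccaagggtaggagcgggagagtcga
Ciart (chr3:95882258-95882478, minus strand): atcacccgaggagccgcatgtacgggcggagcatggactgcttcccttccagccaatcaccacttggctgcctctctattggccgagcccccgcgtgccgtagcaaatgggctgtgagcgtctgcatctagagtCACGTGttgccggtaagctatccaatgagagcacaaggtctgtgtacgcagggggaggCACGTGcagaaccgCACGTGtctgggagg

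The Ciart window held 3 E-boxes, which began 87, 29 and 15 bases before the outermost start of the gene. Of the 32851 promoter windows in the table, 6.02% held at least 1 E-box and 0.0609% held 3 or more. The Per3 window held 2 D-boxes, 163 and 116 bases before that of its gene, where 0.931% of windows held at least 1 and 0.0213% held 2 or more. The Nr1d2 window held 1 AGGTCA, 77 bases before its start, a motif found in 14.0% of windows. The 2 windows of the table for Arntl, which lie inside the outer bounds of the gene, held none of the 3 motifs. These matches describe letters in a window and do not show that a factor binds there.

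The probe of Per3 is a clone of a gene at chr4:150997018-151044707, that of Nr1d2 lies at chr14:18204056-18239106 and that of Ciart at chr3:95878500-95882257, all on GRCm38.p6. The deposited value of a probe is a z-score, its log intensity in SDs of all probes on the same array, so 0 is the mean of an array and differences are in z units and not in folds. Mean z over the 67 arrays was -0.15 for Per3, -1.12 for Nr1d2 and -0.84 for Ciart, at percentiles 44.1, 11.1 and 17.2 of all probes. All 3 probes therefore gave less signal than the average probe, and since probes differ in how well they hybridise these figures do not rank the transcripts. In a bulk sample, less RNA per cell and fewer cells that hold the RNA cannot be told apart.

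The 67 arrays fell into 45 earlier arrays and 22 later ones, numbered 46 and above, a split that appears in the values and not in the labels and that explained 0.945 of the first principal component. No array of the 17-21 day mice was among the later ones, and the other age and diet groups held 2 to 4 of them. A pair of arrays labelled as different mice, 16 months AL male replicate 2 and female replicate 2, was nearly identical (r = 0.99975). The pair counts as 1 sample in each mean ± SD that pools the sexes. In the limma fits its arrays stayed as separate samples unless they were left out. Differences that use the 16 months AL mice therefore need not equal those between the printed means, and their intervals may be too narrow. Of the markers of cortical neurons listed, 1 of 11 genes had a probe, Nefl, the light neurofilament subunit, with mean z of 0.25 and -0.80 at its 2 probes, so the labelled tissue could be checked only in small part.

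The order of the group means differed between the 3 genes, as the plot of levels by age and diet shows. For Ciart the order from high to low was 33-44 days AL, 16 months AL, 16 months CR, 6 months AL, 6 months CR, 24 months CR, 24 months AL and 17-21 days AL, over a span of 0.32. For Per3 it was 33-44 days AL, 6 months CR, 16 months AL, 17-21 days AL, 24 months CR, 16 months CR, 24 months AL and 6 months AL, over a span of 0.19. For both genes all neighbours in the order differed by less than the smaller of their SDs. For Nr1d2 the order began with 33-44 days AL, 6 months CR and 17-21 days AL and ended with 24 months AL and 16 months AL, over a span of 0.64. Its first step, 0.39, was the only one larger than the smaller SD, and it rests on 1 array described below.

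**Figure D1:**
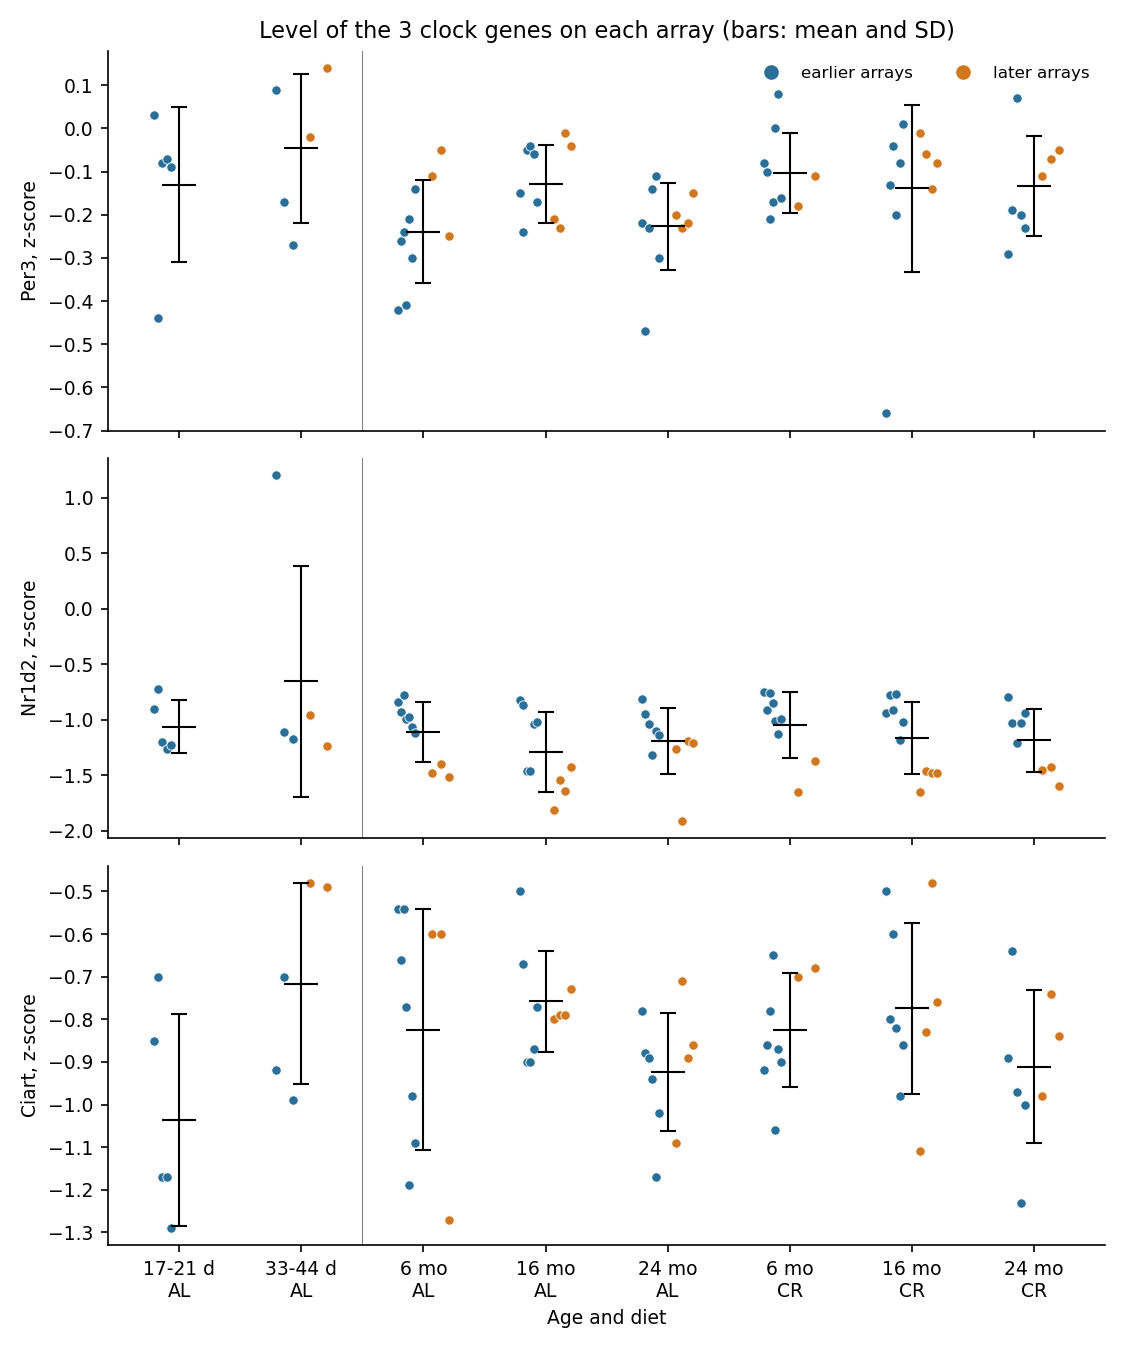
Each point is the z-score of 1 array, with the age and diet group on the x axis and 1 panel per gene. Blue points are earlier arrays, orange points are later arrays, and the black bars give the group mean and SD with the near-identical pair counted once. Nr1d2 is lower on nearly all later arrays than on earlier ones, and 1 array of the 33-44 day group stands at 1.20.

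In the limma fit over all 67 arrays, 0 of the 3 genes passed an adjusted p of 0.05 in any of the 14 comparisons of age, diet, sex and diet by age. The background was as low: 0.0947% of the 8448 probes (8 probes, all lower) passed between 17-21 and 33-44 days, and 0% in each of the other 13 comparisons. Without adjustment, p was under 0.05 for 3 of the 42 values: Ciart between 17-21 and 33-44 days, Per3 between 33-44 days and 6 months, and Per3 between the diets at 6 months. The same unadjusted limit was met by 14.0%, 5.31% and 0.462% of all probes in these comparisons. Across the diet, sex and diet by age comparisons this share ran from 0.462% to 1.07%, less than a limit of 0.05 gives by chance. The fit had no term for the split into earlier and later arrays, which therefore adds to its residual spread. The split can also shift the differences themselves, since the groups held unequal shares of later arrays. A value that does not pass here is thus no evidence that the level was unchanged. The labels name each sample as a mouse of its own, so the p-values measure the spread between animals together with that between arrays. The near-identical pair was not merged in this fit, so the p-values of comparisons that use it may be too small.

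**Figure D2:**
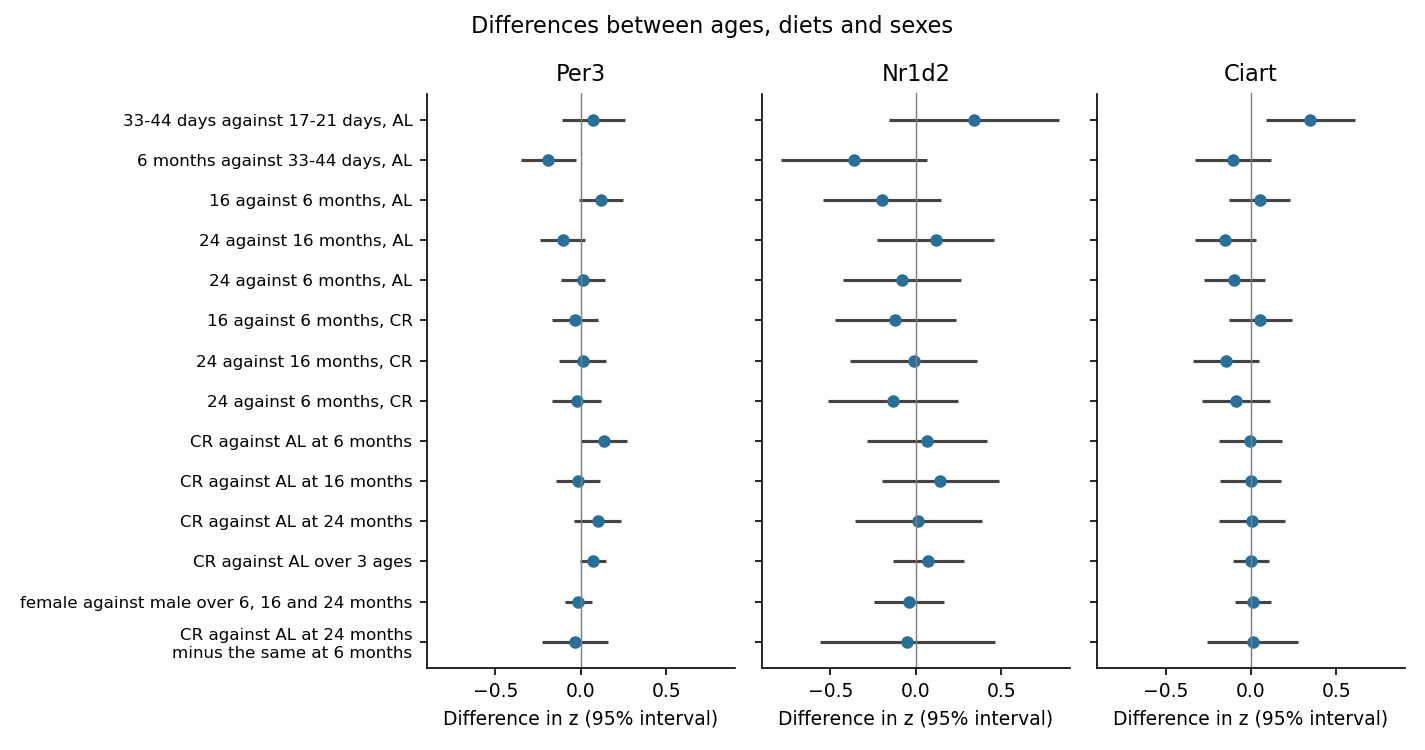
Points are differences in z between the groups named on the y axis (first minus second) and lines are their 95% limma intervals, with 1 panel per gene. All intervals include 0 except those of Ciart for 33-44 against 17-21 days and of Per3 for 6 months against 33-44 days and CR against AL at 6 months.

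Ciart, the CHRONO repressor, differed most between the juvenile ages, without passing the threshold. At 17-21 days its z was -0.70, -0.85, -1.17, -1.17 and -1.29. At 33-44 days it was -0.48, -0.49, -0.70, -0.92 and -0.99. All 5 older arrays stood above the mean of the younger group, but the ranges overlapped. The difference was 0.35 (95% interval 0.09 to 0.61) with adjusted p = 0.240 in limma. The highest values of the older group, -0.48 and -0.49, came from its 2 later arrays. Among earlier arrays alone the difference was 0.17 (interval -0.13 to 0.47), and it was also 0.17 (interval 0.01 to 0.33, adjusted p = 0.997) after the values were corrected for position on the filter with array cycle and batch in the fit. Leaving out 33-44 days AL female replicate 1, the lowest array of its group, raised it to 0.47 with adjusted p = 0.0423, while leaving out female replicate 2 brought it to 0.22.

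Glial markers were lower in the older of the same juvenile groups, without passing the threshold. Of the oligodendrocyte list 1 of 6 genes was measured, Gpr37, whose z ran from -1.28 to -0.89 at 17-21 days and from -1.75 to -1.14 at 33-44 days. Of the astrocyte list 2 of 6 were measured, the glutamate transporter Slc1a3 and the apolipoprotein Clu, and the summed z of their 3 probes ran from -1.30 to -0.48 and from -2.75 to -0.97. None of the 4 glial probes was higher in the older group, 2 had an unadjusted p under 0.05, and 0 passed the adjusted threshold. The unadjusted limit was met by 14.0% of all probes in this comparison. Of other markers, 0 of 2 Nefl probes, 4 of 14 blood cell probes and 3 of 5 probes for other regions were higher in the older group. Among the blood cell probes, 2 also had an unadjusted p under 0.05. The older group held 2 later arrays and the younger group none. The part of the glial markers in the Ciart difference was not tested.

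Adult means of Ciart lay between the juvenile ones when earlier and later arrays were pooled. Among earlier arrays alone the mean was -0.87 at 33-44 days, beside -0.82, -0.74 and -0.95 at 6, 16 and 24 months AL. There the 6- and 16-month AL means stood above both juvenile ones. Over all arrays the z of Ciart at 6 months AL ran from -1.27 to -0.54 with a median of -0.72. The mean was -0.82 ± 0.28 (SD, n = 10). At 16 months AL it ran from -0.90 to -0.50 with a median of -0.79 and a mean of -0.76 ± 0.12 (n = 9). At 24 months AL it ran from -1.17 to -0.71 with a median of -0.89 and a mean of -0.92 ± 0.14 (n = 10). In the 24-month group, 9 of 10 arrays lay below the 16-month mean, with overlapping ranges.

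CR mice, which are other animals, had Ciart differences of similar size between the same ages. Their Ciart mean was -0.82 ± 0.13 (n = 9) at 6 months, -0.77 ± 0.20 (n = 10) at 16 months and -0.91 ± 0.18 (n = 8) at 24 months. At 24 months CR the z ran from -1.23 to -0.64 with a median of -0.93, and 6 of 8 arrays lay below the 16-month CR mean. From 16 to 24 months Ciart differed by -0.15 on AL (interval -0.33 to 0.03, adjusted p = 0.882) and by -0.14 on CR (interval -0.34 to 0.05, adjusted p = 0.999). Neither difference passed. With blocks for array cycle and batch they were -0.15 (interval -0.30 to -0.000769) and -0.16 (interval -0.33 to -0.000909), with adjusted p = 0.314 and 0.387 in limma, and with only the 2 ages fitted the AL interval was -0.28 to -0.02. Without both near-identical arrays the AL difference was -0.18 (interval -0.37 to 0.01). Within the earlier arrays the AL and CR differences were -0.18 and -0.18, and within the later arrays -0.11 and -0.09. After the correction for filter position they were -0.04 (interval -0.15 to 0.07) and -0.09 (interval -0.21 to 0.03), as the plot of Ciart under each processing shows.

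**Figure D3:**
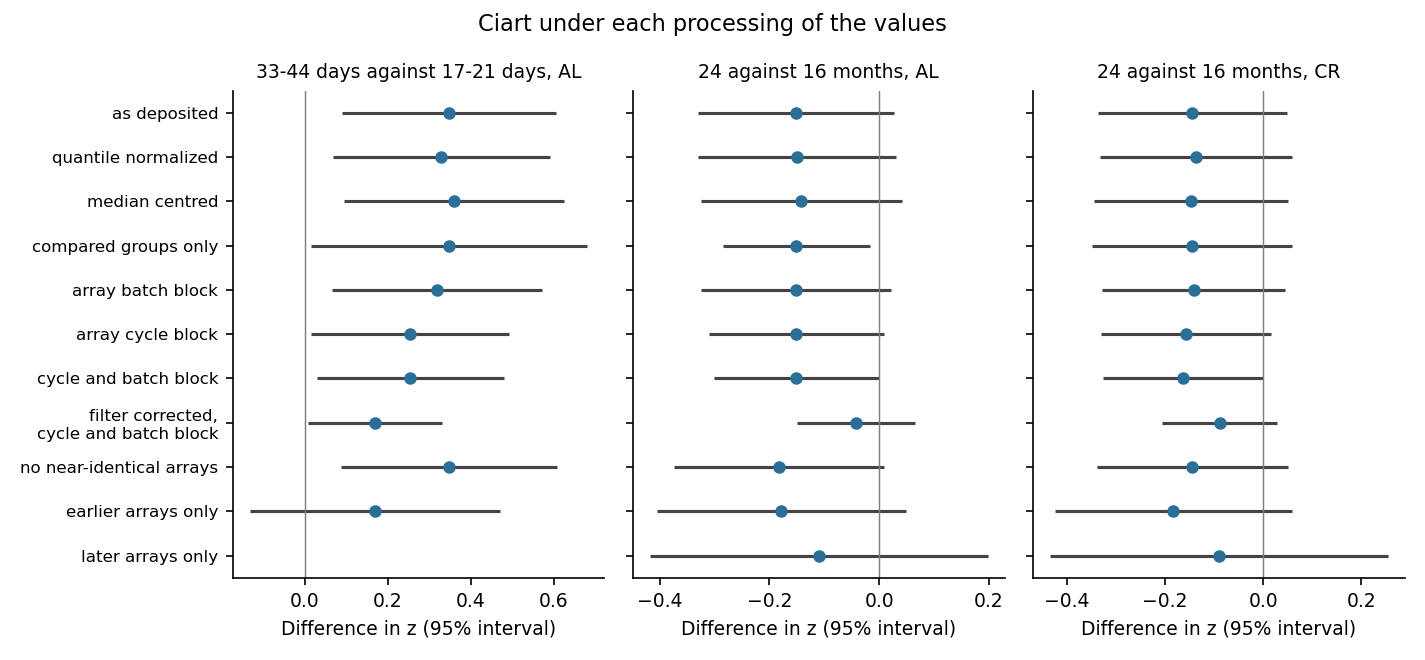
Points are the difference of Ciart in z and lines its 95% limma interval, under the processing named on the y axis, for 1 juvenile and 2 late comparisons. All differences keep their sign, and the filter-corrected value is among the smallest in each panel. The 17-21 day group has no later arrays, so the first panel has no value for them.

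CR and AL mice had close Ciart means at each age. The intervals at single ages were wide beside the span of the adult Ciart means, 0.17. The CR minus AL difference was -0.0045 at 6 months (interval -0.19 to 0.18), -0.002 at 16 months (interval -0.18 to 0.18) and 0.0047 at 24 months (interval -0.19 to 0.20). Over the 3 ages it was -0.000611 with an interval of -0.11 to 0.11, so differences beyond 0.11 in either direction lie outside the interval. Females and males differed by 0.01 (interval -0.10 to 0.12).

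Per3, the PERIOD repressor, was highest at 33-44 days and lowest at 6 months on AL. Its z was -0.44, -0.09, -0.08, -0.07 and 0.03 at 17-21 days. At 33-44 days it was -0.27, -0.17, -0.02, 0.09 and 0.14. The groups overlapped, and the difference was 0.07 (interval -0.11 to 0.26). At 6 months AL the z ran from -0.42 to -0.05 with a median of -0.24, a mean of -0.24 ± 0.12 (n = 10), and all 10 arrays lay below the mean of the 33-44 day mice. The difference from 33-44 days to 6 months was -0.19 (interval -0.35 to -0.03), with adjusted p = 0.875 in limma. With blocks for array cycle and batch it was -0.19 (unadjusted p = 0.0165 in limma). On filter-corrected values with these blocks it was -0.12 (unadjusted p = 0.0654 in limma). The difference was -0.13 within the earlier arrays and -0.18 within the later ones. Without 33-44 days AL female replicate 2 it was -0.09.

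In older AL mice Per3 differed between ages by about its spread. Its mean was -0.13 ± 0.09 (n = 9) at 16 months, where the z ran from -0.24 to -0.01 with a median of -0.15. At 24 months it was -0.23 ± 0.10 (n = 10), with z from -0.47 to -0.11 and a median of -0.22. The difference from 6 to 16 months was 0.12 (interval -0.01 to 0.25) and that from 16 to 24 months was -0.11 (interval -0.24 to 0.02), and neither passed. Within the earlier arrays the first was 0.17 and within the later ones -0.01. From 6 to 24 months the difference was 0.01 (interval -0.12 to 0.14).

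In CR mice the Per3 means lay closer together than their SDs. The mean was -0.10 ± 0.09 (n = 9) at 6 months, -0.14 ± 0.19 (n = 10) at 16 months and -0.13 ± 0.12 (n = 8) at 24 months. At 6 months CR the z ran from -0.21 to 0.08 with a median of -0.11, and all 9 arrays lay above the 6-month AL mean, although the ranges overlapped. The CR minus AL difference at 6 months was 0.13 (interval 0.001 to 0.27), with adjusted p = 1 in limma. It was 0.20 within the earlier arrays and -0.03 within the later ones, which held 2 CR and 3 AL arrays at this age. With blocks for array cycle and batch the difference was 0.14 (unadjusted p = 0.0261 in limma). On filter-corrected values with these blocks it was 0.09 (unadjusted p = 0.0880 in limma).

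At 16 months the diets differed in Per3 by -0.02 (interval -0.15 to 0.11) and at 24 months by 0.10 (interval -0.04 to 0.24). Over the 3 ages the difference was 0.07 (interval -0.01 to 0.15, adjusted p = 1.00). With blocks for array cycle and batch it was 0.08 (unadjusted p = 0.0331 in limma). On filter-corrected values with these blocks it was 0.05 (unadjusted p = 0.0903 in limma). The CR effect at 24 months minus that at 6 months was -0.04 (interval -0.23 to 0.16). Part of the filter by which the authors picked genes was applied too. It asks that the z-ratio, in which a difference is scaled by the SD of all probes' differences, reach 1.5 in either direction, that p be under 0.05 and that average intensity be above 0, which was read here as a mean z above 0. For Per3 at 6 months the z-ratio was 1.92 and p was under that limit in a fit of these groups, and over the 3 ages it was 1.72 with p also under it, but mean z was below 0 in both. Of all probes, 29 and 30 met the 3 conditions. Ciart did not reach a z-ratio of 1.5 in any adult comparison, and Nr1d2 did not have p under 0.05 in any. The sexes differed in Per3 by -0.01 (interval -0.09 to 0.06).

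Nr1d2, the REV-ERB beta gene, varied more between arrays than between groups. Its mean z was -0.95 ± 0.37 (SD, n = 44) on earlier arrays and -1.46 ± 0.21 (n = 22) on later ones. At 17-21 days it was -0.72, -0.90, -1.20, -1.23 and -1.26. At 33-44 days it was 1.20, -0.96, -1.11, -1.17 and -1.24. All arrays but the first of these lay in the range of the younger group.

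The value of 1.20 belongs to 33-44 days AL male replicate 1, array number 1. Nr1d2 stood 2.16 above its mean over all 45 earlier arrays there, while the mean of its 44 neighbours on the filter stood at -0.08. The same array had 104 probes (1.23%) more than 1.5 above their batch mean, against 0 to 29 with a median of 1 on the other 66 arrays. Per3 and Ciart on it were 0.26 and -0.05 from their batch means. With it, Nr1d2 differed by 0.34 (interval -0.16 to 0.84, adjusted p = 0.459) between 17-21 and 33-44 days and by -0.36 (interval -0.79 to 0.06) between 33-44 days and 6 months. With array batch as a block they were 0.55 (interval 0.17 to 0.92, adjusted p = 0.155) and -0.42 (interval -0.74 to -0.10, adjusted p = 0.344). Without the array the differences in the fit with no block were -0.03 and 0.01, and with blocks for cycle and batch they were 0.15 (interval -0.08 to 0.39) and -0.09 (interval -0.29 to 0.12).

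**Figure D4:**
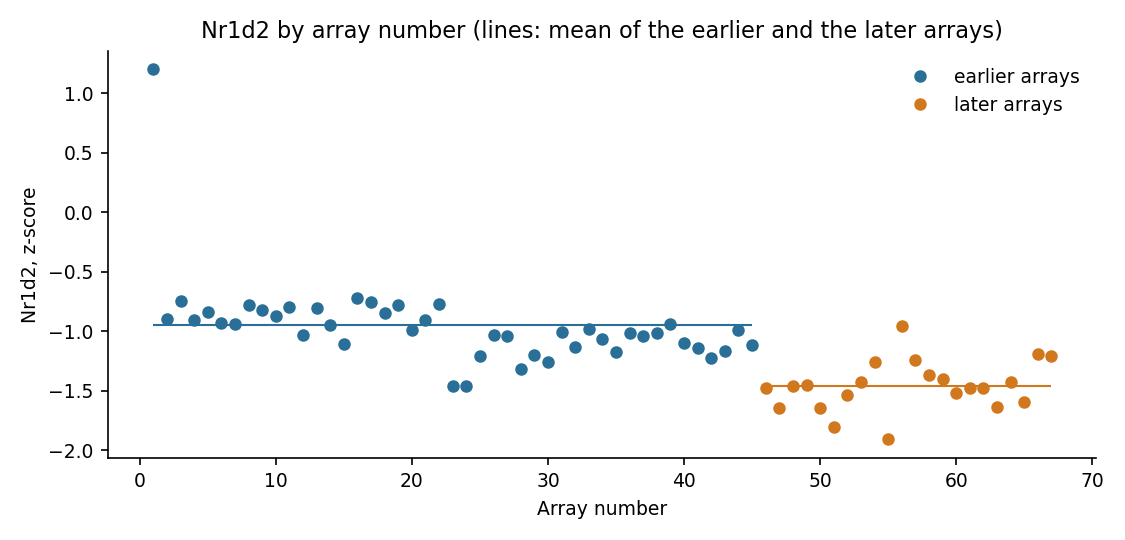
Each point is the z-score of Nr1d2 on 1 array, against the number of the array in the series, and the horizontal lines are the means of the earlier (-0.95) and later (-1.46) arrays. The first array stands at 1.20, and the level drops from array 46 on.

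In adult AL mice the Nr1d2 mean was -1.11 ± 0.27 (n = 10) at 6 months, -1.29 ± 0.36 (n = 9) at 16 months and -1.19 ± 0.29 (n = 10) at 24 months. In CR mice it was -1.05 ± 0.30 (n = 9), -1.17 ± 0.33 (n = 10) and -1.19 ± 0.28 (n = 8). The medians ran from -1.43 at 16 months AL to -0.99 at 6 months CR, and all adult ranges overlapped. From 6 to 16 months it differed by -0.20 on AL (interval -0.54 to 0.15) and by -0.12 on CR (interval -0.47 to 0.23). CR minus AL was 0.06 (interval -0.29 to 0.42), 0.14 (interval -0.20 to 0.49) and 0.01 (interval -0.36 to 0.38) at the 3 ages and 0.07 (interval -0.13 to 0.28) over them. The AL and CR groups at each age held like numbers of later arrays (3 and 2, 4 and 4, 4 and 3), and with array batch as a block none of the Nr1d2 values passed. The sexes differed by -0.04 (interval -0.25 to 0.17).

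The spread between mice of 1 group and batch set how far such differences could be seen. It was an SD of 0.135 for Per3, at percentile 26.4 of all probes, and 0.198 for Ciart, at percentile 78.6, where the median probe had 0.158. Nr1d2 had 0.299, at percentile 94.6, and 0.192, at percentile 79.0, without the array that stood at 1.20. Arntl, the BMAL1 gene and the only activator of the loop with a probe here, had 0.110, at percentile 5.47. Its group means ran from -0.59 at 24 months CR to -0.46 at 16 months CR, and its values beside the 3 genes are given next.

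Whether the clock genes moved together from mouse to mouse was asked of 6 pairs, after group and batch means were removed and with the near-identical pair averaged (n = 66). Ciart and Arntl rose and fell together, with Pearson's r = 0.60 and Spearman's rho = 0.58. Both permutation p-values were 1e-05, the smallest that 100000 permutations can give, or 6e-05 after adjustment over the 6 pairs. Without the 2 arrays farthest from the Ciart median r was 0.54, and it was 0.54 within the earlier arrays and 0.70 within the later ones. The 2 probes lie in the same block of the inferred filter layout, at rows 20 and 17 and columns 6 and 5, and each also followed the mean of its 44 neighbours, Ciart with r = 0.81 and Arntl with r = 0.81 over 67 arrays. After the correction for filter position the Ciart and Arntl r was 0.29 (adjusted permutation p = 0.0612). When array cycle was removed as well and arrays were permuted only within cycle and batch, r was 0.63 (adjusted permutation p = 6e-05).

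**Figure D5:**
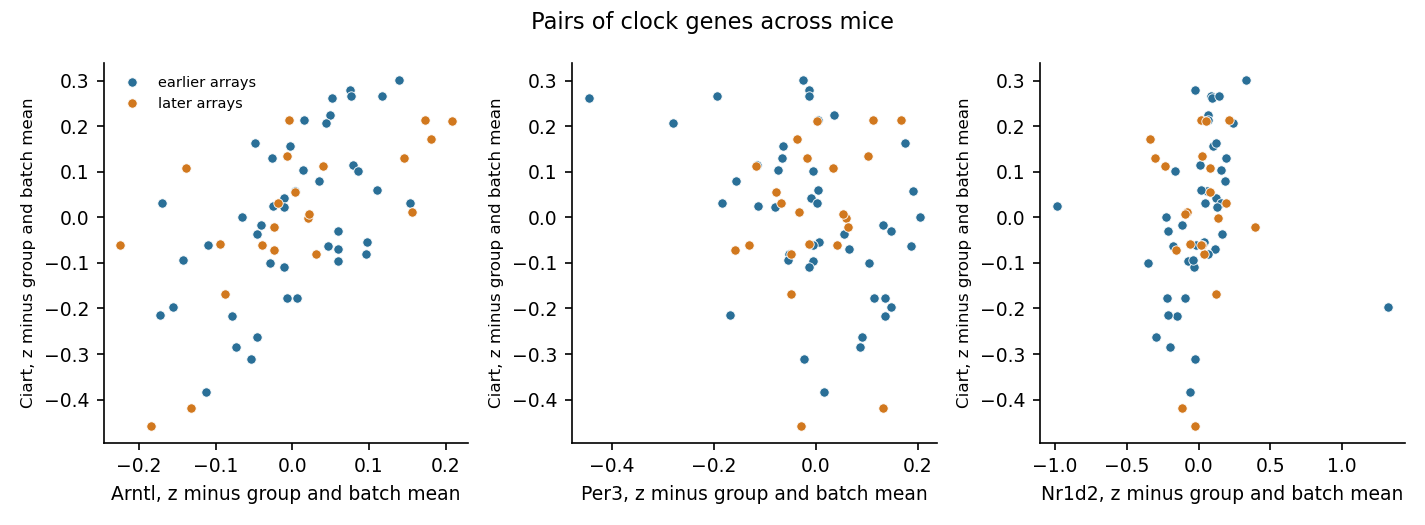
Each point is 1 mouse (n = 66), placed by its z minus its group and batch mean in Ciart (y axes) and in Arntl, Per3 or Nr1d2 (x axes). Blue points are earlier and orange points later arrays. The cloud rises from left to right for Arntl, and the array far to the right in the Nr1d2 panel is 33-44 days AL male replicate 1.

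Per3 and Ciart had a negative correlation that did not pass. Their r was -0.27 (permutation p = 0.0289, adjusted p = 0.0867) and rho was -0.23 (adjusted p = 0.123), with r = -0.17 without the 2 arrays farthest from the Per3 median. Within the earlier arrays r was -0.48 (n = 44, adjusted permutation p = 0.00231), and within the later arrays it was 0.02 (n = 22). After the filter correction r was -0.33 (adjusted permutation p = 0.0416). With array cycle removed and permutations within cycle and batch r was -0.20 (adjusted permutation p = 0.242). It thus held neither within both batches nor within cycles.

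For Nr1d2 and Ciart, r was 0.14 (adjusted permutation p = 0.524) and rho 0.40 (adjusted permutation p = 0.00306), and without the array at 1.20 r was 0.45 (adjusted permutation p = 0.00072). On filter-corrected values r was -0.16 and rho 0.03, so the relation did not hold there. With array cycle removed and permutations within cycle and batch r was -0.07 and rho 0.13 (adjusted permutation p = 0.602 and 0.357), and without the array at 1.20 r was 0.28 and rho 0.30 (adjusted permutation p = 0.114 and 0.0603). Per3 and Nr1d2 had r = -0.00229 and rho = -0.19 (adjusted permutation p = 0.986 and 0.201), and within the earlier arrays rho was -0.50 (adjusted permutation p = 0.000885). In the later arrays rho was 0.34, and with array cycle removed it was -0.12 (adjusted permutation p = 0.357). The other 2 pairs, Per3 and Nr1d2 with Arntl, had r = -0.09 and -0.07 and rho = -0.11 and 0.07, with adjusted permutation p-values from 0.451 to 0.653 on both measures. Their rho passed in 1 other setting each, at -0.34 for Per3 in the earlier arrays (adjusted permutation p = 0.0295) and at -0.32 for Nr1d2 on filter-corrected values (adjusted permutation p = 0.0258), and was -0.20 and -0.11 with array cycle removed.

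The probes most like each gene over the 67 arrays, by Pearson's r after batch means were removed, are given with their distance in probe order and no p. Those of Per3 were Gng13, Ints1, Smarca5, Selenow and Cisd1, with r from 0.63 to 0.76, 3 to 40 places away. Those of Ciart were Pcp4l1, Ino80, Cspp1, Ncdn and Tbccd1, with r from 0.75 to 0.79, 64 to 506 places away, and 4 of the 5 lay in the same column of the inferred layout as Ciart. Those of Nr1d2 were Zswim8, Alg14, Sfxn3, Dld and Dppa1, with r from 0.81 to 0.92, 8 to 2252 places away. Without the array at 1.20 the same r values lay between 0.39 and 0.78.

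Beyond the 3 genes, 15 other clock genes had 20 probes, and 0 of the 20 passed in any of the 14 comparisons. From 17-21 to 33-44 days 11 of 20 differences were positive with a median of 0.11, beside 50.5% positive and a median of 0.00333 over all probes. From 6 to 16 months AL 14 of 20 were positive with a median of 0.02, and for CR against AL over the 3 ages 9 of 20 were positive with a median of -0.00361. Over all probes 50.9% and 49.5% were positive there, with medians of 0.002 and -0.000611. The genes of the list without a named probe here, among them most of the period, cryptochrome and DBP families, were not analysed.

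Among the cofactors, Nono, an RNA-binding partner of the PERIOD proteins, had the smallest p of the list. It differed by -0.34 (interval -0.51 to -0.16, adjusted p = 0.0670) from 17-21 to 33-44 days and by 0.23 (interval 0.08 to 0.38, adjusted p = 0.732) from there to 6 months. These comparisons share the 33-44 day mice, and after the filter correction the values were -0.11 and 0.14. Tipin, the partner of TIMELESS, differed by -0.36 in the first of them (adjusted p = 0.284) and by -0.03 after that correction. Noct, a rhythmic phosphatase, differed by 0.17 at 1 of its 2 probes from 33-44 days to 6 months (adjusted p = 0.932). After the filter correction this value was 0.16.

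Among adults, 1 of 3 probes of Sfpq, a splicing factor that works with Nono, differed by 0.25 from 6 to 16 months AL (adjusted p = 0.999) and by -0.30 between the diets at 16 months (adjusted p = 1.00), comparisons that share the 16-month AL mice. After the filter correction these values were 0.23 and -0.26. From 16 to 24 months AL the smallest p-values were those of Timeless (0.17, adjusted p = 0.807) and Noct (-0.11, adjusted p = 0.903), which were 0.00974 and -0.06 after the filter correction. From 16 to 24 months CR, Arntl differed by -0.15 (interval -0.26 to -0.04, adjusted p = 0.999) and by -0.02 after the filter correction. The casein kinase gene Csnk1d differed by -0.13 there (adjusted p = 0.999) and by -0.11 after the filter correction. Of the modifiers, Btrc, a subunit of the ligase that marks PERIOD proteins for decay, differed by 0.18 between the diets at 6 months at 1 of 2 probes (adjusted p = 1.00). After the filter correction that value was 0.16 (adjusted p = 0.559 in limma). None of these passed.

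Genes that light, activity or corticosterone can induce were set beside the diets, since such inputs also reach Per genes. Of the immediate early genes Egr1 and Ier2 were measured, and of the glucocorticoid-induced genes Fkbp5 and Sgk1. Over the 3 ages CR minus AL was 0.05 for Egr1, -0.00217 for Ier2, -0.05 for Fkbp5 and 0.01 for Sgk1, and all 4 intervals included 0.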

How the data were processed

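Cortical RNA of 67 mice was radiolabelled and hybridised to 1-colour filters of cDNA clones. The deposited score is a z-score: per the labels and methods, the authors turned log intensities into z by array (mean 0, SD 1). The sources used here do not name the base of the logarithm or the background treatment, and no intensities were used. The spread between arrays, and their number, limit precision. The isotope is given as 33P in the labels and otherwise in the methods.

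The table held 8448 probes, 4875 of them with 1 symbol, and 1 missing value. Groups came from the age, diet and sex in the labels. For 1 mouse of the 24 months AL males the free description repeats that of another mouse, and its title and characteristics were used. Replicates were numbered in accession order. A mean for each of 16 groups was fitted with limma 3.58.1 in R 4.3.3. Sexes were weighted equally in 14 comparisons, and moderated p-values were two-sided with Benjamini-Hochberg adjustment over all probes at 0.05. The fit was tried on simulated data with independent noise and no array batch, array cycle or filter position. That trial therefore does not show how the fit behaves with these features. Correlations used two-sided permutations within array batch, or within array cycle and batch where stated (100000, Python 3.11.15, numpy 2.4.6). The filter layout (22 columns, 24 rows, 16 blocks) was inferred from probe order. The correction subtracted the mean of 44 neighbours, which removed 35.1% of the variance within batches, against -2.59% with shuffled probes. Array cycles are the 5 runs of array numbers through the groups. For the wider clock list, genes named are those with the smallest unadjusted p, up to 2 in a comparison described, and for each member the 5 most correlated probes. The members, lists and tests were chosen with earlier results of these data known. The alternatives tried were other scalings, blocks for array batch and cycle, the filter correction, subsets of arrays and leaving out each array. Motifs were counted in RefSeq promoters.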

Additional observations from a re-analysis of the deposited data

Results flagged for a closer look

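In 24 age and diet groups of the 3 genes, the highest or lowest array was compared with the gap to its nearest neighbour. Where each group is 1 normal population, chance gives about 1 in 20 groups. All groups but that of 17-21 days pooled earlier and later arrays, so this rate is only a rough guide. Of the arrays compared, 5 stood apart. The highest was Nr1d2 at 1.20 in 33-44 days AL male replicate 1, with the next array at -0.96. The lowest Nr1d2 array of the 24 months AL group stood at -1.91, with the next at -1.32. It is a later array, female replicate 4. Per3 had 3 low arrays, at -0.44 in the 17-21 days AL group (female replicate 2, the next at -0.09), at -0.47 in the 24 months AL group (female replicate 1, the next at -0.30) and at -0.66 in the 16 months CR group (male replicate 1, the next at -0.20). All 3 are earlier arrays. No array of Ciart stood apart, and the effect of CR did not pass a test of difference between 24 and 6 months for any of the 3 genes. Causes were not tested.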

How the results depend on the processing

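Each of the 42 differences was recomputed under 10 to 12 further settings, and in 399 of 429 cases it kept its direction and stayed above the adjusted threshold, where a difference that rounds to 0.00 counts as having no direction. The other 30 changed sign, all from a size of 0.13 or less, and none of the 429 passed (lowest adjusted p 0.155). The cause of the sign changes was not tested.

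With the later arrays alone, Per3 turned to -0.01 (6 to 16 months AL), -0.09 (6 to 24 months AL), 0.07 (6 to 16 months CR), -0.01 (16 to 24 months CR), 0.06 (6 to 24 months CR), -0.03 (CR against AL at 6 months), 0.05 (the same at 16 months) and 0.14 (diet by age). Nr1d2 turned to 0.06 (6 to 24 months AL), 0.04 (16 to 24 months CR), 0.03 (6 to 24 months CR), -0.06 and -0.09 (CR against AL at 6 and 24 months), -0.02 (over 3 ages) and 0.02 (sex). Ciart turned to -0.01 (6 to 16 months AL), -0.10 (the same on CR) and -0.07 (diet by age). With the earlier arrays alone, Per3 turned to -0.03 (17-21 to 33-44 days) and Ciart to 0.08 (33-44 days to 6 months) and -0.01 (sex). On filter-corrected values Nr1d2 turned to 0.06 and 0.02 (6 to 16 and 6 to 24 months CR), 0.02 (sex) and 0.05 (diet by age), and Ciart to -0.05 (diet by age). With blocks for cycle, or for cycle plus batch, Nr1d2 turned to -0.02 and -0.01 (CR against AL at 24 months) and Ciart to -0.01 and -0.02 (diet by age).

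Leaving out each array in turn gave ranges that crossed 0 for Per3 from 17-21 to 33-44 days (-0.03 to 0.18), 6 to 24 months AL (-0.01 to 0.04), 6 to 16 months CR (-0.06 to 0.03), 16 to 24 months CR (-0.05 to 0.06), 6 to 24 months CR (-0.07 to 0.02), diet at 16 months (-0.04 to 0.04) and diet by age (-0.08 to 0.01). The same held for Nr1d2 from 17-21 to 33-44 days (-0.03 to 0.55), to 6 months (-0.57 to 0.01), 16 to 24 months CR (-0.10 to 0.06), diet at 24 months (-0.07 to 0.09) and diet by age (-0.15 to 0.02), and for Ciart from 33-44 days to 6 months (-0.23 to 0.02), sex (-0.01 to 0.03) and diet by age (-0.02 to 0.06). Ciart from 17-21 to 33-44 days ranged from 0.22 to 0.47 and passed without 33-44 days AL female replicate 1. With cycle and batch as a block and 33-44 days AL male replicate 1 left out, a setting chosen after the data were seen, Nr1d2 differed by 0.15 and -0.09 in the juvenile comparisons.

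The correlation of Per3 and Ciart was -0.33 on filter-corrected values and -0.48 in earlier arrays, past the threshold in both, and 0.02 in later arrays. That of Nr1d2 and Ciart was -0.16 on filter-corrected values and 0.45, past the threshold, without 33-44 days AL male replicate 1, where that of Nr1d2 and Arntl was 0.21. With array cycle removed and arrays permuted within cycle and batch, chosen after the data were seen, Nr1d2 and Ciart had -0.07, and Nr1d2 and Arntl 0.08 without 33-44 days AL male replicate 1. That of Ciart and Arntl was 0.29 on filter-corrected values, no longer past the threshold.

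Over all probes, the 8 that passed from 17-21 to 33-44 days became 70 with array batch as a block, 21 with cycle and batch, 1 with cycle, and 0 on filter-corrected values, in earlier arrays alone or with only the compared groups fitted. From 16 to 24 months AL, 0 became 54 with cycle and 92 with cycle and batch. With the later arrays alone, 1 to 5 probes passed in 8 comparisons where 0 had passed. The filter on mean z above 0 removes all 3 genes and gives no value. No paired analysis was possible because the labels number no replicates, and array cycles, which run through the groups, entered as a block and not as pairs.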
